A study of Mus musculus with 8 samples.

Results

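The nuclear-encoded genes of the mitochondrial respiratory chain and of ATP synthase were followed gene by gene in mouse osteoblastic cells cultured with or without LAMZ. They were chosen by symbol alone, as all Nduf genes of the a, b, c, s and v series, the 4 Sdh genes, the Uqcr, Cox4 to Cox8 and Atp5 genes, Cyc1 and Cycs, with pseudogenes left out. This gave 95 of the 51822 gene symbols, and 93 of the 95 had enough signal to be tested. By textbook role they comprised 18 core subunits, 57 accessory subunits, 10 assembly factors and 8 tissue isoforms. The electron carrier Cycs and the coupling factor gene Atp5s made up the rest. Core subunits were the redox-active or catalytic subunits of complexes I to III and the catalytic part of ATP synthase. Ndufs3, Uqcrc1 and Uqcrc2 were also counted as core. Accessory subunits were here every other structural subunit, membrane subunits included.

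LAMZ (locamidazole) is an aminoindazole derivative described as a compound that acts on muscle and bone cells. The cells were grown in alpha-MEM with 10% FBS, ascorbic acid, dexamethasone at 10 nM and β-glycerophosphate at 10 mM, which is an osteogenic medium, and every group carried these supplements. Either DMSO (control) or 1 μM LAMZ was present in that medium, and RNA was taken on day 7 or day 14 of culture, with 2 libraries in each of the 4 groups (8 libraries). The sample labels name MC3T3-E1, an osteoblastic cell line, whereas the methods name cultured calvarial cells. Nothing in the labels says that replicates 1 and 2 were separate cultures, so the p-values measure the spread between libraries, which may be technical.

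The respiratory chain passes electrons from NADH (complex I) and succinate (complex II) through complex III and cytochrome c to complex IV, cytochrome c oxidase, and the proton gradient that this builds drives ATP synthase, also called complex V. Most of its subunits are encoded in the nucleus and are made in every cell, whereas several subunits of complex IV also exist as isoforms that are typical of heart and skeletal muscle, lung, testis or cells short of oxygen. Assembly factors help to build the complexes and, with few exceptions, are not part of the finished enzyme.

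Values are RPKM, that is, reads divided by exon length and by the mapped reads of the library, so levels of different genes are comparable per length. The libraries held an estimated 3464020 to 5832894 mapped reads, the totals at which low RPKM values turn into whole reads. Osteoblast markers summed to between 7207 and 18910 RPKM over the 8 libraries, most of it from Col1a1 and Col1a2. With LAMZ, 7 of the 11 were higher on each day, against 4.35% of all tested genes on day 7 and 6.96% on day 14. Macrophage markers, 15 genes, summed to 480.7 to 628.2 RPKM in control cells on day 7 and to 1196 to 1216 on day 14, but to between 7.31 and 9.28 in the 4 LAMZ libraries, where C1qa, C1qb, C1qc, Tyrobp, Laptm5, Mpeg1 and Ctss were all listed at 0. The control and LAMZ cultures therefore also differed in macrophage RNA, and in bulk RNA fewer cells of a type and less RNA per cell cannot be told apart. Between replicates of a group, the lowest Pearson's r over all tested genes was 0.961 and the highest 0.98; genes are not independent of each other.

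The members spanned a wide range of levels. Averaged over the 8 libraries, Cox6a1, the ubiquitous subunit 6a of cytochrome c oxidase, was highest at 222.8 RPKM, followed by Ndufa4l2 at 175.0 RPKM. Core subunits had a median level of 22.9 RPKM, from 7.82 RPKM for Ndufs1 to 107.6 RPKM for Atp5b, the catalytic β subunit of ATP synthase. Accessory subunits had a median of 25.4 RPKM and reached down to 2.35 RPKM for Ndufab1, the mitochondrial acyl carrier protein. Assembly factors had a median of 3.91 RPKM, and the lowest was Ndufaf4 at 1.60 RPKM. The somatic cytochrome c gene Cycs stood at 2.67 RPKM and Atp5s at 1.48 RPKM. Within complex I the highest level was that of Ndufa13 (67.4 RPKM), within complex II that of Sdhd (37.0 RPKM, against 18.3 RPKM for Sdhc, its partner in the membrane anchor), and within complex III that of Uqcr11 (76.7 RPKM, against 18.2 RPKM for Uqcrc2). These levels are per summed exon length, so a gene with long alternative exons is understated.

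**Figure D1:**
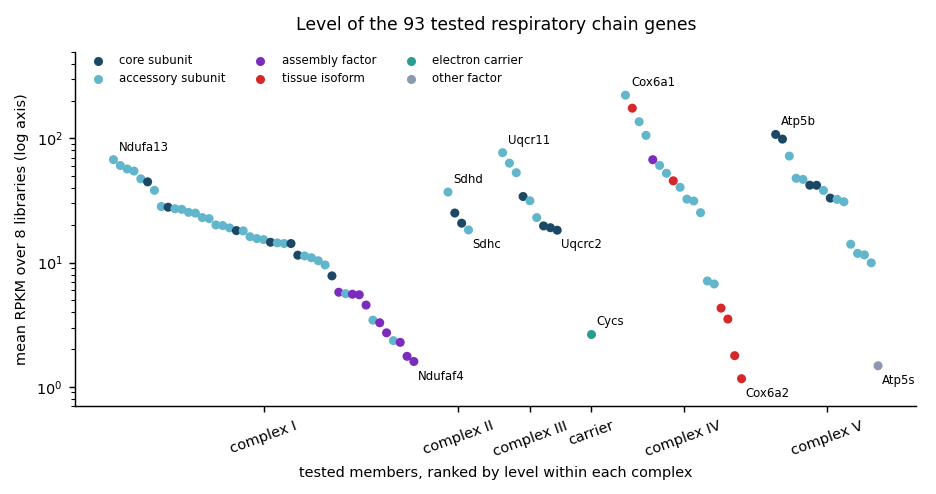
Mean RPKM over 8 libraries (log axis) of the 93 tested members, ranked within each complex; colours give the class of the gene, and the highest and lowest member of each complex are named. Complex IV holds both the highest member, Cox6a1 at 222.8 RPKM, and the lowest, Cox6a2 at 1.16 RPKM, and the assembly factors of complex I lie at its lower end.

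Whether LAMZ changed these genes was asked at each day. Most members did not pass the test, and those that did were few and spread over complexes I, III, IV and V. The largest rises on day 7 were those of the tissue isoforms Cox4i2 and Ndufa4l2. On day 14 the largest was that of the isoform Cox6a2, which had enough signal to be tested only through the day 14 LAMZ libraries. On day 7, Cox4i2, Ndufa4l2, Uqcrfs1 and Cox7a2l rose and Ndufa11 fell, which is 4 of 93 members higher, with 4.35% of all 12514 tested genes higher, and 1 of 93 lower, with 8.49% of all tested genes lower. On day 14, Cox6a2, Uqcrq, Ndufaf5 and Atp5g2 rose and Ndufa4 fell, again 4 higher and 1 lower, with 6.96% of all tested genes higher and 16.0% lower. Calls were made by limma on log2(RPKM + 1) with an adjusted p under 0.05, and every fold change below is on that scale. Leaving out either day 7 LAMZ library gave 3 calls on day 7. On day 14, leaving out day 14 control replicate 1 or LAMZ replicate 1 gave 1 call, day 14 control replicate 2 or LAMZ replicate 2 gave 2, and either day 7 control library gave 9. The median log2 fold change of the members was 0.06 on both days, with 59 of 93 above 0 on day 7 and 57 of 93 on day 14. Of all 12514 tested genes, 4992 were above 0 on day 7 and 4403 on day 14, at medians of −0.08 and −0.15.

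The sign of the members' median depended on how the libraries were scaled to each other. With every library rescaled to the same sum of RPKM, the median of the members became −0.24 on day 7 and −0.28 on day 14, and that of all tested genes −0.31 and −0.43, so the members still lay above the bulk of genes. Under that scaling 2 members were called higher and 8 lower on day 7, and 1 higher and 25 lower on day 14. Of all genes called under that scaling, only 8.69% were higher on day 7 and 8.16% on day 14, so the calls leaned to lower in general. With the libraries centred on their median, 10 were called higher and 1 lower on day 7, and 15 higher and 0 lower on day 14, with member medians of 0.17 and 0.25. Of all genes called under this centring, 53.5% were higher on day 7 and 56.3% on day 14. The share of all tested genes that was called under these scalings is not given here. The counts of members under them are therefore not read as a result about the members. The sum itself leans on 1 gene, the signal recognition particle RNA Rn7s1, which took 18.1% to 33.7% of all RPKM in a library. Rescaling to the same sum lost 5 of the 10 named calls, those of Uqcrfs1, Cox7a2l, Uqcrq, Atp5g2 and Ndufaf5, and median centring lost that of Ndufa4, with no change of sign.

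**Figure D2:**
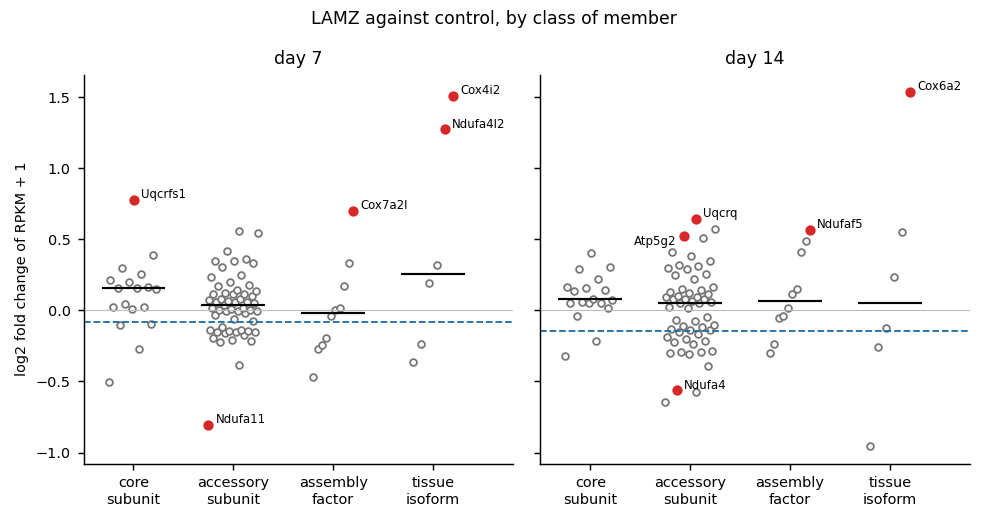
Log2 fold change of RPKM + 1, LAMZ against control, for each tested core subunit, accessory subunit, assembly factor and tissue isoform on day 7 (left) and day 14 (right). Red points passed the test and are named, open points did not, black bars are class medians and the dashed line is the median of all tested genes, −0.08 and −0.15.

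Cox4i2 had the largest log2 fold change of the members on day 7. It encodes an isoform of subunit 4 of cytochrome c oxidase that is known from lung and pericytes and is used at low oxygen, and it lies on chromosome 2 (152754173 to 152765037, GRCm38, plus strand). Its RPKM was 18.9 and 17.6 in control cells and 45.2 and 63.6 in LAMZ-treated cells on day 7, and 39.2 and 49.4 in control cells and 67.2 and 63.2 in LAMZ-treated cells on day 14. The day 7 control libraries stood apart below the other 6, and LAMZ and control libraries overlapped on neither day. LAMZ and control differed by a log2 fold change of 1.51 on day 7 (SE 0.18, adjusted p = 0.00194 from limma) and 0.56 on day 14 (SE 0.18, adjusted p = 0.0602). The day 7 call held in all 19 alternatives, with values of 1.21 to 1.75. Cox4i1, the ubiquitous subunit 4, was at 100.6 and 100.2 RPKM in control cells and at 102.4 and 104.1 RPKM in LAMZ-treated cells on day 7, a log2 difference of 0.04 with a 95% confidence interval from −0.23 to 0.31.

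Ndufa4l2 also rose on day 7. It is a paralogue of Ndufa4, a subunit of cytochrome c oxidase, and a known target of the hypoxia-inducible factor HIF-1, and it lies on chromosome 10 (127514967 to 127517154, plus strand). Its RPKM was 67.8 and 108.1 in control cells and 182.2 and 238.2 in LAMZ-treated cells on day 7, and 178.9 and 188.9 in control cells and 190.1 and 245.6 in LAMZ-treated cells on day 14. Among the 95 members it ranked 10 and 4 in the day 7 control libraries and 1 or 2 in each of the other 6 libraries. The log2 fold change was 1.27 on day 7 (SE 0.24, adjusted p = 0.0128 from limma) and 0.23 on day 14 (95% confidence interval −0.32 to 0.78). Without day 7 LAMZ replicate 2 the day 7 value was 1.08 (adjusted p = 0.0891), and with no filter on low genes its adjusted p was 0.0501. Of its 1095 exon bases, 32 are shared with Shmt2 on the opposite strand, a gene that rose by a log2 fold change of 0.71 on day 7 and 1.34 on day 14, and whether the reads keep strand is not given in the sources used here.

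Uqcrfs1, the Rieske iron-sulfur protein of complex III, was the core subunit that passed the test on day 7. Its RPKM was 14.8 in both control libraries and 28.0 and 24.4 in the LAMZ libraries, from 76 and 70 reads against 163 and 173. On day 14 it was 15.9 and 20.3 in control cells and 21.3 and 18.5 in LAMZ-treated cells, and the groups overlapped. This was a log2 fold change of 0.78 on day 7 (SE 0.15, adjusted p = 0.0137 from limma) and 0.14 on day 14 (95% confidence interval −0.21 to 0.48). The day 7 call was lost without day 7 control replicate 1 (0.78, adjusted p = 0.0552), without day 7 LAMZ replicate 1 (0.68, adjusted p = 0.106) and with rescaling to the same sum (0.49, adjusted p = 0.0548). The other core genes of complex III, Cyc1 (cytochrome c1), Uqcrc1 and Uqcrc2, did not pass on either day.

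Cox7a2l, which encodes a factor that joins complexes III and IV into supercomplexes, had 61.3 and 44.6 RPKM in control cells and 84.6 and 86.7 RPKM in LAMZ-treated cells on day 7. All LAMZ libraries were above all control libraries on that day, and also on day 14, where the values were 53.9 and 57.9 against 81.8 and 68.0 RPKM. The log2 fold change was 0.70 on day 7 (SE 0.17, adjusted p = 0.0316 from limma) and 0.41 on day 14 (adjusted p = 0.116). The day 7 call was lost with no filter on low genes (adjusted p = 0.0846), with rescaling to the same sum (0.40, adjusted p = 0.0883) and when any of 5 libraries was left out: day 7 control replicate 2 (0.48, adjusted p = 0.101), either day 7 LAMZ library (0.72 and 0.69, adjusted p = 0.141 and 0.14) or either day 14 control library (adjusted p = 0.052 and 0.0523).

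Ndufa11, an accessory subunit in the membrane arm of complex I, was the member that fell on day 7. Its RPKM was 16.2 and 15.0 in control cells and 8.99 and 8.01 in LAMZ-treated cells, and on day 14 it was 11.0 and 10.4 in control cells and 9.47 and 8.54 in LAMZ-treated cells. Here too the day 7 control libraries stood apart from the other 6, this time above them. On the log2 scale the fold change was −0.80 on day 7 (SE 0.12, adjusted p = 0.00469 from limma) and −0.22 on day 14 (adjusted p = 0.209), and the day 7 call held in all 19 alternatives. It shares 70 of 1092 exon bases with Vmac on the opposite strand. Vmac itself was at 5.83 and 6.34 RPKM in control cells and at 3.81 and 4.72 RPKM in LAMZ-treated cells on day 7 (log2 fold change −0.43, adjusted p = 0.155).

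On day 14, Cox6a2 had the largest rise. It encodes the heart and skeletal muscle isoform of subunit 6a and lies on chromosome 7 (128205435 to 128206387, minus strand). It had 1 and 0 reads in day 7 control libraries, 0 and 0 in day 7 LAMZ libraries, 2 and 2 in day 14 control libraries and 21 and 8 in day 14 LAMZ libraries, where its RPKM was 5.30 and 2.41. The day 14 LAMZ libraries were thus above the other 6, none of which held more than 2 reads. Summed over libraries, 29 reads against 4 is a ratio of 6.69 per mapped read on day 14, with an exact 95% interval of 2.35 to 26.2 that covers counting error only. The fitted log2 fold change was 1.54 (SE 0.32, adjusted p = 0.0108 from limma). Cox6a2 entered the test only through the day 14 LAMZ libraries, the 2 in which it reached 1 RPKM, so its being called is in part set by the filter, and with no filter the adjusted p was 0.035. The call was lost without either day 14 control library (adjusted p = 0.0581 and 0.052), without day 14 LAMZ replicate 1 (1.09, adjusted p = 0.0806) and with a pseudocount of 0.1 (2.40, adjusted p = 0.089). Cox6a2 shares 70 of 680 exon bases with Itgad on the opposite strand, and Itgad was at 0.12 RPKM or lower in every library. Striated muscle markers, 19 genes, summed to between 22.9 and 28.9 RPKM in day 14 LAMZ libraries and to between 4.08 and 10.5 RPKM in the other 6. Of that list, Acta1 carried 22.8 and 18.5 RPKM in the day 14 LAMZ libraries, Ckm was at 0.12 and 0 RPKM and Myog at 0.23 and 0.27 RPKM, and the part of the list in the Cox6a2 result was not tested.

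The other members that rose on day 14 were subunits of complexes III and V and an assembly factor. Uqcrq, a small accessory subunit of complex III, went from 17.7 and 18.9 RPKM in control cells to 31.6 and 26.9 RPKM with LAMZ. Its log2 fold change was 0.64 (SE 0.13, adjusted p = 0.0114 from limma). Its 2 day 14 LAMZ libraries were above all 6 other libraries, which lay between 17.7 and 24.5 RPKM. Atp5g2 is 1 of 3 genes that encode the same c subunit of the ATP synthase rotor. It went from 34.7 and 30.1 RPKM in control cells to 46.1 and 47.6 RPKM with LAMZ. Its log2 fold change was 0.52 (SE 0.12, adjusted p = 0.0172 from limma), and its day 14 LAMZ libraries were likewise the highest of the 8. The call of Uqcrq was lost without day 14 control replicate 1 (0.60, adjusted p = 0.0613), without day 14 LAMZ replicate 1 (0.53, adjusted p = 0.0769) and with rescaling to the same sum (0.30, adjusted p = 0.0914). That of Atp5g2 was lost without day 14 control replicate 2 or either day 14 LAMZ library (0.42, 0.54 and 0.50, adjusted p = 0.094, 0.0688 and 0.0933), with rescaling to the same sum (0.17, adjusted p = 0.28) and with the same rescaling without Rn7s1, chosen after seeing the data (0.28, adjusted p = 0.16).

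Ndufa4, the ubiquitous partner of Ndufa4l2, fell. Its RPKM was 32.3 and 31.6 in control cells and 28.7 and 25.9 in LAMZ-treated cells on day 7, and 26.0 and 24.0 in control cells and 17.9 and 15.4 in LAMZ-treated cells on day 14. Its LAMZ libraries were below the control libraries of the same day on both days. The log2 fold change was −0.22 on day 7 (adjusted p = 0.283 from limma) and −0.56 on day 14 (SE 0.12, adjusted p = 0.0133), from 193 and 150 reads in control cells and 144 and 104 in LAMZ-treated cells on day 14. The day 14 call was lost without day 14 control replicate 1 (−0.51, adjusted p = 0.0681), without day 14 LAMZ replicate 2 (−0.46, adjusted p = 0.0926) and with median centring (−0.37, adjusted p = 0.065).

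**Figure D3:**
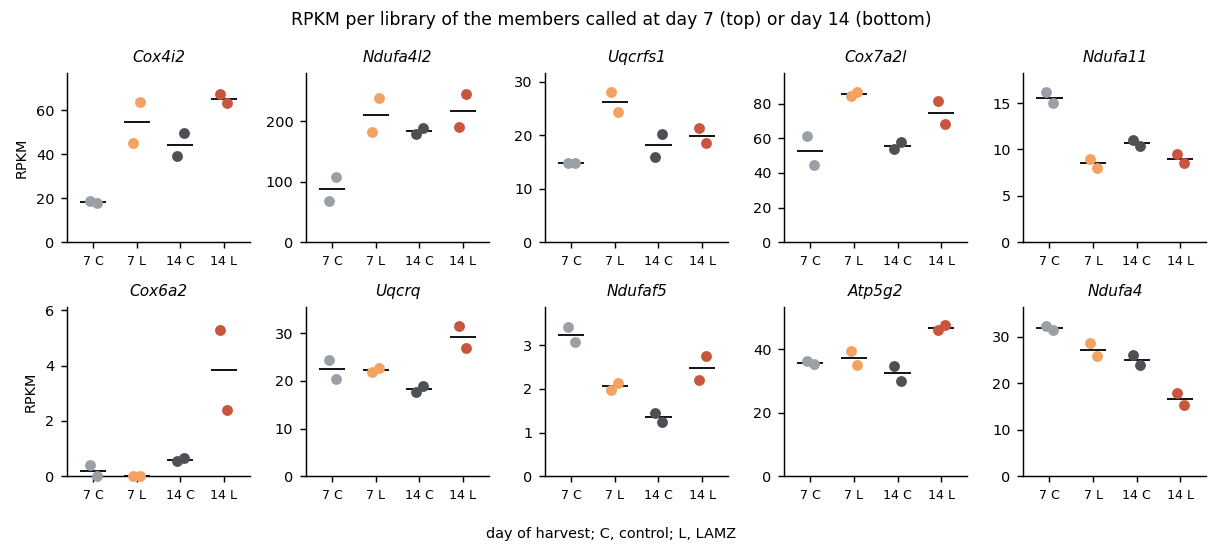
RPKM per library of the 10 members that passed the test, in the top row on day 7 and in the bottom row on day 14. Points are libraries, bars are means of 2 libraries, C is control and L is LAMZ. For Cox4i2, Ndufa4l2 and Ndufa11 the day 7 control libraries stand apart from the other 6, and for Cox6a2, Uqcrq and Atp5g2 the day 14 LAMZ libraries stand above the other 6.

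Promoter sequence from RefSeq (GRCm38.p6) was at hand for 75 of the 95 members, and for 6 of the 10 that passed the test on either day. The 250 bases before each start site were searched on both strands for 3 motifs of factors that are textbook regulators of respiratory genes or of cyclic AMP response: GCGCNNGCGC for NRF1, CCGGAAG for ETS factors such as GABP, and TGACGTCA for CREB. The NRF1 motif occurred in 16 of 75 members (21.3%) and in 4.98% of all 32851 promoters, the ETS motif in 14 (18.7%) and 6.91%, and the CREB motif in 5 (6.67%) and 1.55%. Members were counted by gene, with a match in any promoter of the gene, and the background by promoter. The percentages are therefore not like measures, and they were not compared by a test. Of the 6, Atp5g2, Ndufa11 and Uqcrfs1 held a match and Cox7a2l, Ndufa4 and Ndufaf5 did not. The sites are shown, with capitals for the motif, because a gene that rose and a gene that fell carried the same letters.
Uqcrfs1 CREB motif, chr13:30545328-30545355, minus strand: ggcgtcgcgcTGACGTCAcaaaccctgc
Ndufa11 CREB motif, chr17:56717594-56717621, plus strand: ttacctttccTGACGTCAcgggcgtctc
Ndufa11 NRF1 motif, chr17:56717692-56717721, plus strand: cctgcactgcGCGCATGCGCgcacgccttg
Atp5g2 NRF1 motif, chr15:102671070-102671099, minus strand: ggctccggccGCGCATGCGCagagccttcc
The CREB motif began 29 bases before the start in Uqcrfs1, which rose on day 7, and 158 bases before it in Ndufa11, which fell. The NRF1 motif began 60 bases before the start in Ndufa11 and 42 bases before it in Atp5g2. The starts are those of the RefSeq promoters. In the annotation used for exon lengths, Uqcrfs1 begins at 30545362 and Atp5g2 at 102672352 on the minus strand, so their sites lie inside the gene there. A match of letters is no evidence of binding.

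Tissue isoforms were then set against their ubiquitous partners. Of the 8, Cox7b2 and Cox8c, both typical of testis, had 1 read each in 1 library and none in the other 7, and were not tested. For the others, the isoform was expressed as a percent of the summed RPKM of isoform and partner. Cox4i2 made up 15.8% and 14.9% of its pair in control cells and 30.6% and 37.9% in LAMZ-treated cells on day 7, and 30.1% and 31.8% against 35.4% and 34.6% on day 14. Ndufa4l2 made up 67.8% and 77.4% against 86.4% and 90.2% on day 7, and 87.3% and 88.7% against 91.4% and 94.1% on day 14. In both pairs every LAMZ library was above both control libraries of its day, and the day 7 LAMZ and day 14 control libraries overlapped.

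The log2 ratio of isoform to partner was tested by an exact two-sided permutation of libraries within days, which allows 36 relabelings and cannot give a p below 0.0556. Averaged over both days, the ratio was higher with LAMZ by 0.86 for Cox4i2 over Cox4i1 and by 1.14 for Ndufa4l2 over Ndufa4, and lower by −0.82 for Cox7a1 over Cox7a2, each with that smallest p of the exact test (0.111 after adjustment over 6 pairs). The differences for Cox6a2 over Cox6a1 (0.36, exact p = 0.389), Cox8b over Cox8a (−0.33, exact p = 0.5) and Cox6b2 over Cox6b1 (−0.10, exact p = 0.611) had larger p-values.

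Cox7a1, the heart and muscle isoform of subunit 7a, rested on few reads: 3 and 4 in day 7 control libraries, 4 and 2 in day 7 LAMZ libraries, 10 and 6 in day 14 control libraries and 2 and 4 in day 14 LAMZ libraries. On day 14 that was 6 reads against 16, a ratio of 0.346 per mapped read with an exact 95% interval of 0.111 to 0.931 for counting error. Its log2 fold change on day 14 was −0.95 (adjusted p = 0.0532 from limma). The sum of the 8 adipocyte markers was also lower with LAMZ on day 14. It was 46.8 and 97.0 RPKM in control cells and 7.97 and 9.55 RPKM in LAMZ-treated cells. Of the 4 tested, Adipoq, Fabp4 and Lpl fell, with 16.0% of all tested genes lower. Pparg did not pass (−0.24, adjusted p = 0.305 from limma), and Ucp1 was listed at 0 in every library. In these control libraries, Fabp4 was at 6.44 and 41.2 RPKM and Cox7a1 at 3.48 and 2.48 RPKM. The part of these markers in the Cox7a1 values was not tested. Cox8b, another heart and muscle isoform, had 13 and 14 reads in day 14 control libraries and 8 and 21 in day 14 LAMZ libraries, a ratio of 0.991 with an interval of 0.567 to 1.74. Cox6b2, the testis isoform of subunit 6b, had 11 to 30 reads in a library and passed no test.

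**Figure D4:**
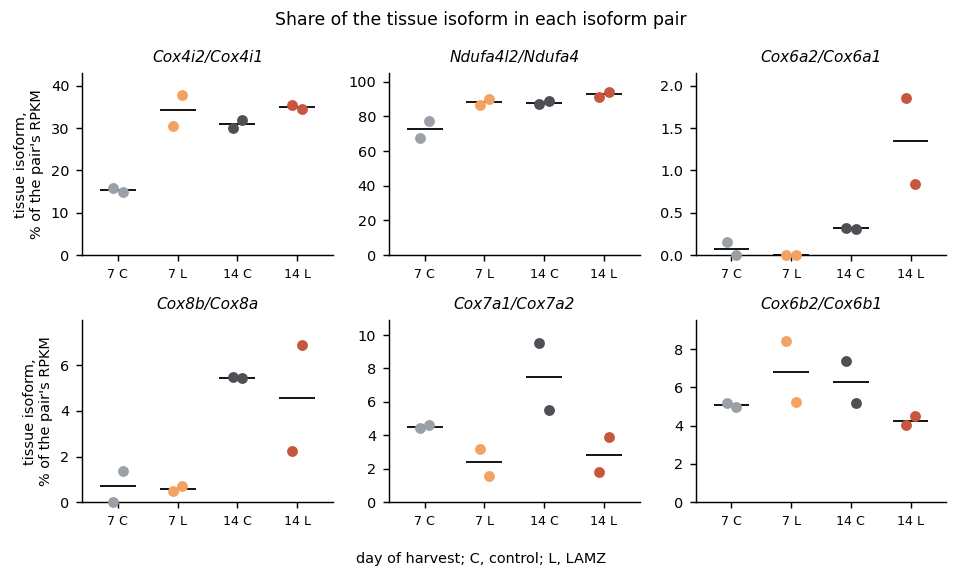
Tissue isoform as a percent of the summed RPKM of isoform and ubiquitous partner in each library, for 6 pairs. Points are libraries, bars are means of 2 libraries, C is control and L is LAMZ. Cox4i2 rose from 14.9% and 15.8% in day 7 control libraries to between 30.1% and 37.9% in the others, whereas Cox6a2 stayed below 2% of its pair.

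Cox4i2 and Ndufa4l2 are also known as genes of pericytes, the mural cells of small vessels. The pericyte markers, 8 genes, summed to 841.4 to 1020 RPKM in day 7 control libraries and to 1131 to 1395 RPKM in day 7 LAMZ libraries, nearly all of it Acta2 (α-smooth muscle actin), which osteoblastic cells also make. Of the 5 that were tested, Cspg4 (NG2) rose and Pdgfrb fell on day 7, and Cspg4 and Acta2 rose and Notch3 and Pdgfrb fell on day 14. Cspg4 was at 7.18 and 11.3 RPKM in control cells and 24.8 and 23.9 RPKM in LAMZ-treated cells on day 7. Its log2 fold change was 1.33 then (adjusted p = 0.00484 from limma) and 1.77 on day 14 (adjusted p = 0.00076). That of Pdgfrb was −0.68 on day 7 (adjusted p = 0.00798). Kcnj8 had a log2 fold change of 0.55 on day 7 (adjusted p = 0.248). Rgs5 was under 1 RPKM in every library, Abcc9 was between 0.12 and 1.01 RPKM, and Higd1b was listed at 0 in 6 libraries and was at 0.83 and 0.23 RPKM in the day 7 LAMZ libraries. The part of this list in the values of Cox4i2 and Ndufa4l2 was not tested.

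Assembly factors showed no common direction. Besides Cox7a2l, 9 members help to build complex I, and their log2 fold changes with LAMZ lay between −0.47 and 0.33 on day 7 and between −0.30 and 0.56 on day 14. Ndufaf5, which hydroxylates the core subunit Ndufs7, was the member of this class that passed the test on day 14. Its RPKM was 3.41 and 3.07 in control cells and 1.97 and 2.15 in LAMZ-treated cells on day 7, and 1.46 and 1.24 in control cells and 2.20 and 2.75 in LAMZ-treated cells on day 14. The libraries of the groups did not overlap on either day, and the order was the opposite on the 2 days. The log2 fold change was −0.47 on day 7 (adjusted p = 0.0727 from limma) and 0.56 on day 14 (SE 0.14, adjusted p = 0.0266), from 10 to 24 reads in a library, and the day 14 call was lost when any of the 4 day 14 libraries was left out (0.45 to 0.68, adjusted p = 0.0521 to 0.16). It was also lost with no filter (adjusted p = 0.0777), with rescaling to the same sum (0.34, adjusted p = 0.0868) and with that rescaling without Rn7s1 (0.41, adjusted p = 0.0714).

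Ndufaf8, which stabilises Ndufaf5, had log2 fold changes of −0.19 on day 7 and 0.12 on day 14 (adjusted p = 0.715 and 0.809 from limma). Ndufaf6, an early-acting factor, had −0.25 and 0.49, and the early factors Ndufaf3 and Ndufaf4 had −0.04 and 0.02 on day 7 and −0.30 and 0.15 on day 14. Ndufaf1 and Atp5sl, which act on the membrane arm, had 0.33 and −0.28 on day 7 and −0.24 and 0.02 on day 14. Ndufaf2, a late factor, had 0.18 and −0.04, and Ndufaf7 had 0.00 and −0.06. None of these passed. A further list of 47 genes that bear other symbols, of which 44 were tested, held mainly assembly factors. It also held the ATP synthase subunit genes Usmg5 and 2010107E04Rik and the ATP synthase inhibitor gene Atpif1, none of which passed on either day. On day 7, 0 of the 44 rose and 1 fell, with 4.35% of all tested genes higher and 8.49% lower. On day 14, 2 rose (Ecsit and Coa4) and 2 fell (Coa5 and Pet100), with 6.96% and 16.0% of all tested genes.

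Of the 75 core and accessory subunits, 1 rose and 1 fell with LAMZ on day 7, with 4.35% of all tested genes higher and 8.49% lower, and 2 rose and 1 fell on day 14, with 6.96% and 16.0%. By complex, the median log2 fold change was 0.00 for complex I, −0.02 for complex II, 0.04 for complex III, 0.18 for complex IV and 0.06 for complex V on day 7, and 0.05, −0.17, 0.08, 0.18 and 0.07 on day 14. The core subunits were above 0 for 14 of 18 genes on day 7 and 15 of 18 on day 14, at medians of 0.16 and 0.08. Of all 12514 tested genes, 4992 and 4403 were above 0. Rescaled to the same sum, the core subunits above 0 numbered 3 on day 7 and 1 on day 14, at medians of −0.14 and −0.27, and with median centring 16 were above 0 on each day. A missed threshold does not show that a gene did not change, so the intervals were counted: for 86 of the 88 members without a call on day 7, and for 82 of 88 on day 14, the 95% confidence interval of the log2 fold change lay between −1 and 1. A narrower range of −0.5 to 0.5 held the interval of 40 and 33 of them. Atp5b is an example of a close match, with 132.3 and 113.7 RPKM in control cells and 128.9 and 120.8 RPKM in LAMZ-treated cells on day 7, a log2 difference of 0.03 with an interval from −0.31 to 0.36. Cox6a1 is an example of a wide interval, with 172.4 and 207.3 RPKM in control cells and 279.4 and 284.5 RPKM in LAMZ-treated cells on day 14 and an interval from 0.08 to 1.07 (adjusted p = 0.0909 from limma).

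The effect of LAMZ was then compared between the days. No member passed the test of the difference (0 of 93 in limma, with 0.312% of all tested genes higher and 0.312% lower), and 14 of 93 members had an unadjusted p under 0.05, as had 2061 of the 12514 tested genes. The member nearest the threshold was Ndufaf5, whose log2 fold change was higher on day 14 than on day 7 by 1.03 (SE 0.20, adjusted p = 0.0741 from limma). The difference, day 14 minus day 7, was −0.95 for Cox4i2, −1.04 for Ndufa4l2, −0.64 for Uqcrfs1, 0.58 for Ndufa11, 0.65 for Uqcrq and 1.77 for Cox6a2 (adjusted p between 0.122 and 0.191). So a call on 1 day and not on the other is not shown to be a difference between the days for any of them. Averaged over both days, 9 members were higher and 4 lower, with 9.12% and 20.3% of all tested genes. The higher ones were Cox4i2, Ndufa4l2, Cox7a2l, Uqcrfs1, Uqcrq and Atp5g2, and 3 named after their values were seen: Ndufc2, an accessory subunit of complex I (0.53, adjusted p = 0.0203 from limma), Ndufs3, a core subunit of complex I (0.25, adjusted p = 0.0434), and Cox8a, the ubiquitous subunit 8 of cytochrome c oxidase (0.37, adjusted p = 0.0388). The lower ones were Ndufa11, Ndufa4, Cox7a1 and the flavoprotein subunit of complex II, Sdha, which is named after its value was seen (−0.30, adjusted p = 0.0304 from limma). Leaving out either day 7 LAMZ library gave 7 calls on this average, either day 14 control library 8 and day 14 LAMZ replicate 1 gave 6.

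Culture time was then examined within each culture. In control cells, the median log2 fold change from day 7 to day 14 was −0.14 for core subunits, −0.12 for accessory subunits, −0.03 for assembly factors and 0.79 for the 6 tested tissue isoforms. All 6 isoforms had higher RPKM in both day 14 control libraries than in both day 7 control libraries, while the groups were separated in this direction for 21.0% of all tested genes. All 6 stayed above 0 under each of the 5 other scalings, with medians of 0.82 and above, whereas the median of the core subunits became 0.10 with rescaling to the same sum. The call was made for 3 members higher, with 2.46% of all tested genes, and all 3 were isoforms: Cox8b (2.42, SE 0.53, adjusted p = 0.0453 from limma), Cox4i2 (1.23, SE 0.18, adjusted p = 0.0131) and Ndufa4l2 (1.09, SE 0.24, adjusted p = 0.0453). For Cox4i2 and Ndufa4l2, the rise with LAMZ on day 7 was measured against the same day 7 control libraries. Their rises with time and with LAMZ are therefore not independent results. Cox8b, the heart and muscle isoform of subunit 8, went from 0 and 2 reads to 13 and 14 reads in control cells, a ratio of 9.87 per mapped read with an exact 95% interval of 2.48 to 85.7 for counting error. Cox6a2 and Cox7a1 rested on fewer reads, and their intervals include no change. Cox6a2 had 4 reads on day 14 against 1 on day 7, a ratio of 2.93 with an interval of 0.29 to 144. Cox7a1 had 16 reads against 7, a ratio of 1.67 with an interval of 0.651 to 4.81. Cox6b2 had 12 and 11 reads in the day 7 control libraries and 30 and 16 in those of day 14. No counting interval was computed for it, and it was not called. The 2 members that fell, with 2.40% of all tested genes, were Atp5l, subunit g of ATP synthase (82.4 and 106.6 RPKM on day 7, 46.0 and 57.1 RPKM on day 14, log2 fold change −0.86, adjusted p = 0.0305), and Ndufaf5 (−0.85, adjusted p = 0.0208). These 5 calls did not hold when either day 14 control library was left out, though the log2 fold changes kept their sign. Without day 14 control replicate 1 or 2, Cox8b was at 2.57 or 2.26 and Cox4i2 at 1.39 or 1.07. Ndufa4l2 was then at 1.13 or 1.05, Atp5l at −0.71 or −1.01 and Ndufaf5 at −0.92 or −0.79. Some calls were also lost without a day 7 control library. The same held without a LAMZ library, which is outside this comparison and leaves the value unchanged. Macrophage markers moved with time in the same libraries, with 12 of 15 higher on day 14 and 0 lower, and their part in these values was not tested.

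In LAMZ-treated cells, 2 members were higher and 5 lower on day 14 than on day 7, with 5.10% and 9.26% of all tested genes. The higher ones were the muscle isoforms Cox6a2 and Cox8b. Cox6a2 had 29 reads on day 14 and 0 on day 7, which is at least 8.55-fold higher when 3 reads over the group are taken as the floor (log2 fold change 2.21, SE 0.32, adjusted p = 0.00444 from limma). Here too the day 14 LAMZ libraries are those that let it pass the filter, and with no filter the adjusted p was 0.0187. Cox8b had 1 and 2 reads on day 7 and 8 and 21 on day 14, a ratio of 8.55 with an interval of 2.65 to 43.8 (adjusted p = 0.0353). The lower ones were accessory subunits: Cox7b of complex IV (−0.93), Uqcr11 of complex III (−0.73), Ndufa4 (−0.68), Atp5g3 (−0.54), another gene for the c subunit, and Ndufb3 of complex I (−0.42), which the naming rule does not cover. Cox7b went from 40.0 and 45.5 RPKM to 24.4 and 19.6 RPKM, and Uqcr11 from 83.0 and 110.8 RPKM to 59.9 and 55.0 RPKM. Leaving out day 14 LAMZ replicate 2 left 1 call (Cox6a2), leaving out day 14 LAMZ replicate 1 gave 3, and leaving out either day 7 LAMZ library gave 2. Cox4i2 and Ndufa4l2, which rose with time in control cells, differed by 0.28 and 0.05 in LAMZ-treated cells (95% confidence intervals −0.14 to 0.69 and −0.50 to 0.60).

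**Figure D5:**
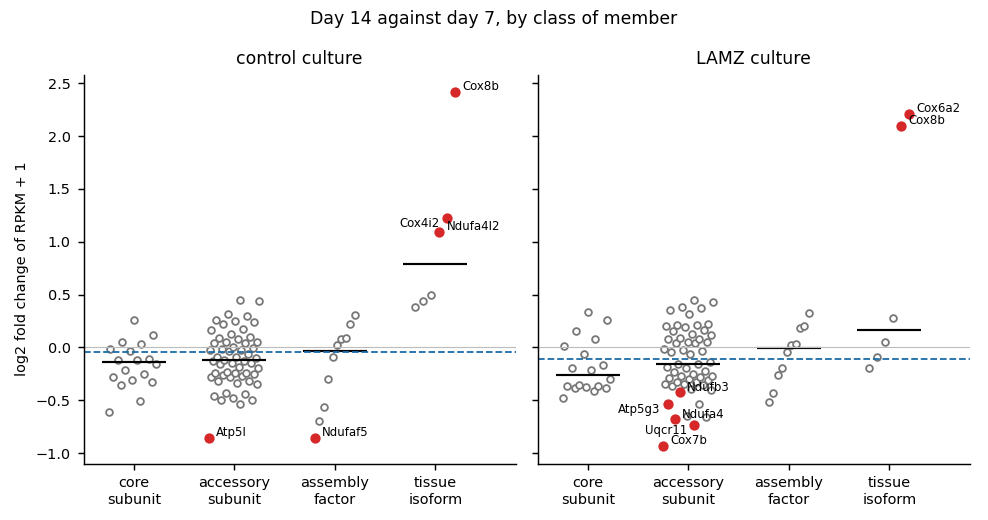
Log2 fold change of RPKM + 1 from day 7 to day 14 for each tested member by class, in control culture (left) and LAMZ culture (right). Red points passed the test and are named, open points did not, black bars are class medians and the dashed line is the median of all tested genes, −0.04 and −0.11. The 6 tissue isoforms all lie above 0 in control culture, with a median of 0.79, although Cox6a2, Cox7a1, Cox6b2 and Cox8b among them rest on few reads.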

How the data were processed

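Total RNA was sequenced on an Ion Proton and reads were assigned to genes in CLC Genomics Workbench; the build named in the submitters' processing notes is mm10, and the version of the program and the strand setting are not given in the sources used here. The authors deposited RPKM for 51826 entries per library, of which 4 with repeated symbols were dropped. Groups came from the sample labels; the column header of day 7 LAMZ replicate 1 carries another code than its label, and the label was followed.

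A gene was tested where 2 or more of the 8 libraries had an RPKM of 1 or above (12514 genes). A single 4-group model was fitted to log2(RPKM + 1) in limma 3.58.1 (R 4.3.3; lmFit, eBayes with a trend, 4 residual degrees of freedom). P-values were adjusted by Benjamini-Hochberg over all tested genes. The methods name clustering and enrichment but no gene-by-gene test for these data. Exon lengths, positions and overlaps came from GENCODE M21 (GRCm38). With these lengths, 54 members gave whole reads, within 0.1 read, in all 8 libraries, and read counts are given for these alone; mapped reads were the number at which 95.1% to 97.4% of low values became whole. Intervals and floors (3 reads) cover counting error only. The fit was also run on simulated data with a single assumed spread, and no result here rests on that run.

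The members and all lists were chosen with earlier results of these data known. Named genes were the called members at day 7 and day 14 (up to 6 per direction), the highest and lowest member of each complex, all tissue isoforms with their partners, all assembly factors, and up to 3 called members per direction between the days in each culture. Alternatives were other pseudocounts, filters and scalings, a correction for gene length (lowess span 0.3), the replicate number as a block, no trend, and leaving out each library, where a lone library is assumed to vary like the other groups.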

Additional observations from a re-analysis of the deposited data

How the results depend on the processing

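Of the 20 calls of named genes, 0 changed sign in any alternative and 3 held in every alternative that tested them (Cox4i2 and Ndufa11 on day 7, and Cox6a2 from day 7 to day 14 in LAMZ-treated cells, a gene that passed the filter only through the day 14 LAMZ libraries), and 22 values of named genes without a call passed the threshold in at least 1 alternative. Counts that moved by over 1.5 times are given for LAMZ against control on day 7 (5 in the report), on day 14 (5) and averaged (13), and from day 7 to day 14 in control culture (5) and LAMZ culture (7). Rescaling to the same sum gave 10, 26 and 39. The same without Rn7s1, chosen after seeing the data, gave 9, 15 and 19. Median centring gave 11, 15 and 23. Quantile normalization gave 9 on day 7 and 8 on day 14, and the gene length correction 10 and 9. With no filter, the counts were 3 on day 7, 7 averaged, 1 in control culture and 3 in LAMZ culture. With no mean-variance trend they were 8 averaged and 3 in control cells, and with a pseudocount of 0.1 they were 3 in control cells. Leaving out 1 library gave 3 to 5 on day 7, 1 to 9 on day 14, 6 to 11 averaged, 0 to 4 in control culture and 1 to 9 in LAMZ culture, and 0 in every case for the difference between the days. The share of all tested genes called in each alternative is not given here, so these counts show only how the calls moved. The cause of these changes was not tested. The average log2 ratio of isoform to partner kept its sign without each library for Cox4i2 (0.75 to 0.98), Ndufa4l2 (0.97 to 1.32), Cox7a1 (−0.99 to −0.64) and Cox6a2 (0.14 to 0.59), and not for Cox8b (−0.70 to 0.04) and Cox6b2 (−0.27 to 0.08).

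Replicates numbered alike did not deviate together (correlations of deviations between −0.0342 and 0.0776), so the numbers are not taken to pair the libraries. With the replicate number as a block, 5, 5 and 11 members were called on day 7, on day 14 and averaged, 5 in control culture and 6 in LAMZ culture. With 2 libraries a group and few reads for the low isoforms, differences such as those of Cox7a1 or Cox8b are at the limit of the depth.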
